A study of Mus musculus with 4 samples.

Results

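Pi16-positive fibroblasts were described among single cells released from mouse bone and marrow. A barcode, which stands for 1 cell, was a member where it held at least 2 UMIs of Pi16 and at least 1 UMI in at least 2 of the 5 partner genes Procr, Sema3c, Cd55, Efhd1 and Adgrd1. A UMI is a molecular identifier, so that each captured RNA molecule is counted once. Among 15670 kept barcodes, 924 were members, 585 of 10063 in the young library and 339 of 5607 in the old library. Since members were chosen on measured values of these 6 genes, the levels of those genes are a description and were not tested.

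The study sampled 1 young (6 months) and 1 old (24 months) INK-ATTAC mouse, and neither was treated. INK-ATTAC mice carry a transgene in which a fragment of the p16Ink4a promoter drives a caspase 8 cassette that acts only once a dimerizer drug is given. Femur and tibia were digested together with their marrow, blood lineages were depleted with magnetic beads, and live CD45- cells were sorted before RNA and a CD24 antibody tag were read from the same droplets (CITE-seq). Each age is 1 mouse and 1 library, so age, mouse and library cannot be told apart, and shares are shares of sorted cells rather than of tissue.

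Pi16 encodes a peptidase inhibitor family protein, and in many mouse organs it marks fibroblasts of the adventitia, the loose sheath around larger vessels. Such cells are known to carry Dpp4, Cd34, Ly6a and Cd248 and to secrete microfibril proteins. In bone, the best studied Pdgfra-positive cells are instead the Lepr- and Cxcl12-rich stromal cells of the marrow, which support blood stem cells, and the osteoblast lineage, which lays down bone matrix. The members were therefore set against all other kept barcodes with a Pdgfra UMI (5857 young and 3417 old). They were also set against fibroblast groups taken as like them, a likeness that was not measured beforehand.

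Members made up 5.81% of kept young barcodes (95% Clopper-Pearson interval 5.36 to 6.29) and 6.05% of kept old barcodes (5.44 to 6.70), where intervals cover counting error only. Members with a Pdgfra UMI were 8.13% and 8.69% of all Pdgfra-positive barcodes. The intervals of the young and old mice overlapped under each choice of members that was tried. When each barcode was thinned to 2000 UMIs before the choice, the shares were 2.53% and 2.17%, so the share depends on depth.

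The libraries held 81076421 (young) and 66702846 (old) RNA UMIs in kept barcodes. Members had a median of 8331 and 12682 UMIs per barcode, against 6967 and 10485 in other Pdgfra-positive barcodes. The choice needs UMIs in several genes and so favours deep barcodes, and the comparisons were repeated at equal depth. Scrublet called 17 young and 11 old members doublets, which were kept. The libraries shared 25 barcode sequences, and 0 of them were members in both.

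Within the members, Pi16 ranged widely. The median member held 8 Pi16 UMIs in the young mouse and 9 in its old counterpart, the highest held 121 and 182, and 44.1% and 47.2% held at least 10. Pi16 stood at 1457 and 1239 CPM in members, where CPM is the UMIs of a gene scaled to a common total, against 21.1 and 13.9 CPM in other Pdgfra-positive barcodes. The partner genes were each found in most members. Sema3c, a secreted guidance cue, had a UMI in 85.0% of young and 82.3% of old members, and Cd55, which shields cells from complement, in 85.5% and 79.9%. Procr, the protein C receptor, was found in 70.9% and 67.0%, Efhd1, a calcium-binding mitochondrial protein, in 69.7% and 70.2%, and the adhesion receptor Adgrd1 in 67.9% and 80.2%. All 5 partners were found in 33.3% of young and 33.6% of old members.

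The background from free RNA was read in erythroid and B-lineage barcodes, which should lack Pi16 (median 8510.5 and 17072 UMIs). A Pi16 UMI was found in 1.26% of these blood barcodes in the young and 3.39% in the old library, and in 6.51% and 6.88% of other Pdgfra-positive barcodes. Cd55 is also expressed by blood cells, and it was found in 29.0% and 44.0% of the blood barcodes.

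**Figure D1:**
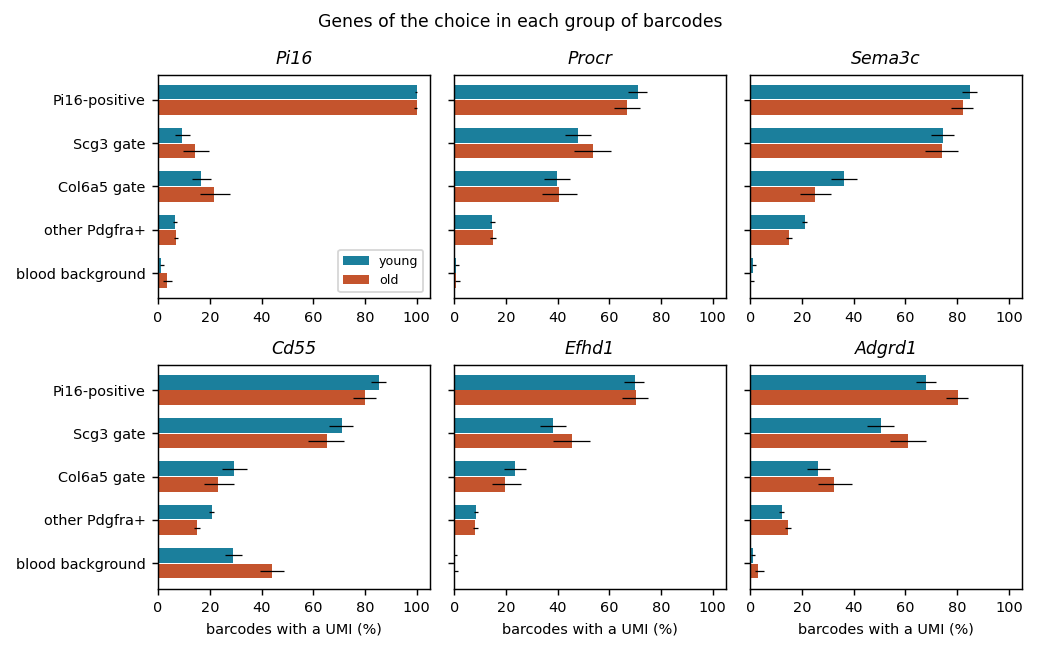
Share of barcodes with at least 1 UMI (x axis, percent) of the 6 genes used to choose members, 1 panel each, in 5 groups of barcodes (y axis) of the young and old mice, with exact 95% intervals as error bars. Pi16 stands at 100% in members because they were chosen on it, while Sema3c reached 74.7% and 74.2% in the Scg3 gate, a like fibroblast group described further on, against 85.0% and 82.3% in members.

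At the Pi16 edge of the choice, young barcodes with exactly 2 Pi16 UMIs and at least 2 partners (66, just inside) held Dpp4 at 124 and Cd34 at 1031 CPM, and those with 1 Pi16 UMI and at least 2 partners (135, just outside) held 78.5 and 655 CPM. In the old mouse Dpp4 and Cd34 stood at 117 and 872 CPM just inside (38 barcodes) and at 64.0 and 571 CPM just outside (74 barcodes). At the partner edge, members with exactly 2 partners (91 young and 58 old) held Dpp4 at only 30.3 and 8.58 CPM, against 18.4 and 8.34 CPM in barcodes with 1 partner (76 and 61, just outside), and Cd34 at 703 and 536 CPM against 700.4 and 378 CPM. Members with few partners thus held far less Dpp4 than members with little Pi16, and in the old mouse no more than the 11.3 CPM of other Pdgfra-positive barcodes. Barcodes with at least 2 Pi16 UMIs but no partner (62 young and 78 old) lay further off, with Dpp4 at 2.44 and 4.84 CPM and Cd34 at 429 and 177 CPM. The lowest Dpp4 values here, with those of the old mouse at the partner edge, rest on few UMIs. No counting interval was made for them.

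The label was checked against genes that did not enter the choice. Cd34, a sialomucin of vessel and stromal cells, had a UMI in 99.5% of young and 98.5% of old members, Ly6a (Sca-1) in 99.8% and 98.5%, and Pdgfra in 88.5% and 95.9%. Dpp4 had a UMI in only 45.8% of young and 43.1% of old members. In other Pdgfra-positive barcodes the shares were 6.69% and 5.47% for Dpp4 and 36.5% and 27.9% for Cd34. Ptprc, which encodes CD45, was found in 6 young and 6 old members. No member held a UMI of Sox10 (Schwann cells) or Msln (mesothelium), which allows shares of up to 0.629% of young and 1.08% of old members with a UMI. Sox10 had no UMI in the other Pdgfra-positive or blood barcodes either, so it does not set members apart. Msln had none in other Pdgfra-positive barcodes of the old mouse or in blood barcodes of either mouse, so its absence tells little. The position of the cells in the tissue was not measured.

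Genes were compared on UMIs summed per mouse and group, with edgeR's quasi-likelihood test and the mouse as a block (4 sums from 2 mice, 1 residual degree of freedom, spread shared across genes). The 6 genes of the choice and Pdgfra were left out. The other genes did not enter the choice but were counted in the same barcodes. Of 15152 genes, 1659 were higher in members (10.9% of those tested) and 1780 were lower (11.7%) at a Benjamini-Hochberg adjusted p under 0.05. The median change over all tested genes was -0.02 on the log2 scale.

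The universal adventitial list, genes known from Pi16- and Dpp4-positive fibroblasts of other organs, rose almost as a whole. Of its 35 genes 31 were higher, 2 were lower, and the median log2 change was 2.16. The gene lists were chosen with earlier results of these data known, so such counts are no independent check of the label. Dpp4, a cell surface dipeptidase, stood at 114 (young) and 104 (old) CPM in members and at 16.9 and 11.3 CPM in other Pdgfra-positive barcodes. Its log2 change was 3.06 ± 0.13 (edgeR adjusted p = 2.29e-05). Here and below, the value after ± is the log2 change over the square root of the test's F statistic. It rests on the spread shared across genes and does not measure the spread between the mice. Cd248 (endosialin) stood at 569 and 528 against 101 and 80.7 CPM. In neither mouse did the levels of members and the rest come near each other.

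Cd34 stood at 1020 and 934 CPM against 247 and 136 CPM (log2 change 2.51 ± 0.18, edgeR adjusted p = 0.000148). Rarer genes of the list had larger changes. Gap43, a growth cone protein, rose by 4.03 ± 0.42 on the log2 scale from a low level, 9.72 and 7.83 CPM in members. Dact2, a regulator of WNT and TGF-beta signalling, rose by 3.87 ± 0.20. The ligand Wnt2 rose by 3.15 ± 0.31 and was found in 6.84% and 5.90% of members.

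Nt5e, the ectonucleotidase CD73, went against the rest of the list. It was at 21.1 and 10.9 CPM in members and 65.3 and 58.3 CPM in other Pdgfra-positive barcodes (log2 change -1.87 ± 0.18, edgeR adjusted p = 0.000603), and Limch1 was lower as well. Bmp7 did not pass the test. Igfbp5 did not pass either, as it was higher in young members (6782 against 3610 CPM) and lower in old members (4605 against 5265 CPM).

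Among genes with at least 50 CPM in members of both mice, Tek had the highest log2 change. Genes below that level could exceed it, such as Lypd2, named here after its values were seen, at 70.9 and 2.61 CPM in members against 1.01 and 0.0710 CPM (log2 change 6.15 ± 0.23). Tek encodes TIE2, the angiopoietin receptor best known from endothelium. It held 62.4 (young) and 62.2 (old) CPM in members against 4.08 and 3.01 CPM, a log2 change of 4.23 ± 0.14 (edgeR adjusted p = 1.83e-05). Tek was found in 34.2% and 43.4% of members. After thinning to 2000 UMIs it was found in 12.3% and 14.5% of members and in 0.791% and 0.542% of other Pdgfra-positive barcodes, so the difference was also seen at equal depth. In blood barcodes Tek stood at 0.0865 and 0.299 CPM.

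Endothelial genes other than Tek were at or near 0 in members. Of the 12 endothelial markers 6 could be tested, and besides Tek only Emcn passed, lower in members (edgeR adjusted p = 0.0408). Tie1, Flt4 and Cldn5 had no UMI in members of either mouse, Cdh5 was found in 1 young and 0 old members, and Pecam1 in 4 and 3. The 12 markers summed to 67.3 and 65.7 CPM in members, of which Tek made up nearly all.

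The other genes named by size as higher were Ifi27l2a, Galnt16, Engase, Lims2, Ston2, Anxa3, Zfp385a, Cadm3, Emilin2 and Ptgs2, with log2 changes from 2.50 to 3.03. Ifi27l2a, an interferon-inducible gene, stood at 124 and 204 against 17.6 and 24.4 CPM. Anxa3, an annexin that binds phospholipids, stood at 342 and 344 against 70.1 and 47.8 CPM. Ptgs2, the inducible cyclooxygenase, stood at 399 and 194 against 75.7 and 36.6 CPM, lower in the old mouse in members and rest alike. Of the genes named as higher, Dpp4 (29.8 and 18.1 CPM), Ifi27l2a (33.0 and 23.0 CPM), Emilin2 (42.6 and 72.0 CPM), Zfp385a (11.8 and 11.4 CPM) and Engase (7.78 and 7.39 CPM) were also carried by the blood barcodes, and the others stood below 2 CPM there.

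**Figure D2:**
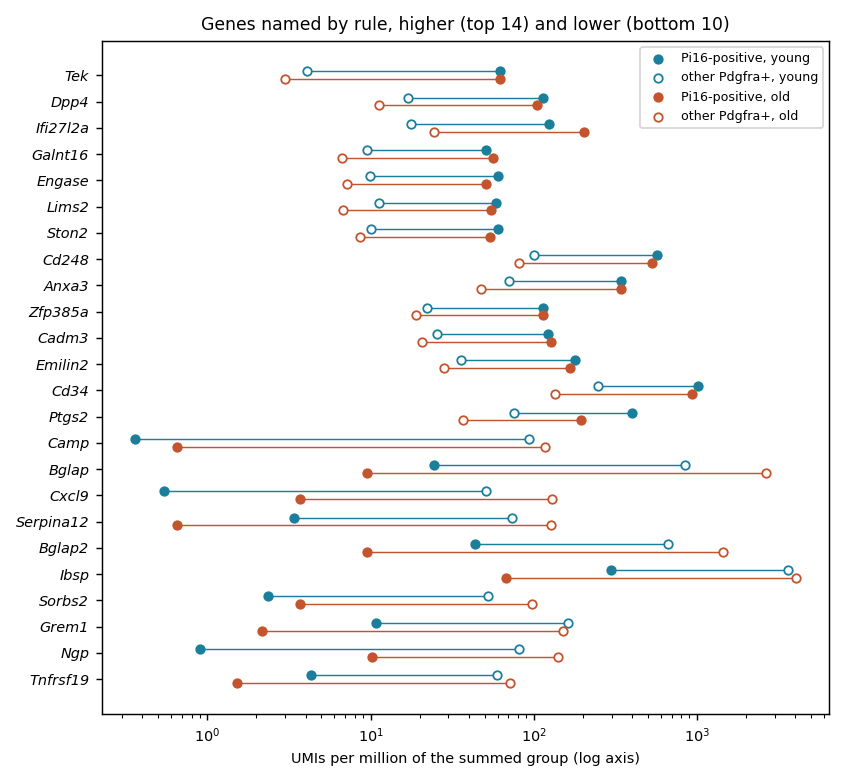
CPM of the summed group (x axis, log scale, labelled as UMIs scaled to a common total) for the 14 genes named as higher and the 10 named as lower (y axis), in Pi16-positive fibroblasts (filled points) and other Pdgfra-positive barcodes (open points) of each mouse, joined by lines. Each gene lies on the same side in both mice, and Tek stands at 62.4 and 62.2 against 4.08 and 3.01 CPM.

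The genes named as lower included bone matrix genes. Bglap, which encodes osteocalcin, stood at 24.6 and 9.57 CPM in members against 841 and 2667 CPM (log2 change -6.34 ± 0.67, edgeR adjusted p = 0.000844). Ibsp, bone sialoprotein, stood at 299 and 67.2 against 3598 and 4064 CPM, and Grem1, a BMP antagonist, at 10.8 and 2.17 against 162 and 152 CPM. Cxcl9, Serpina12, Bglap2, Sorbs2 and Tnfrsf19 had log2 changes from -5.39 to -4.33. Bglap and Bglap2 are near-identical copies whose UMIs the counting may have split.

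Camp and Ngp, neutrophil granule genes, completed the named genes. Camp had 2 UMIs in young and 3 in old members and was 260 times lower in CPM than in the rest in the young mouse (counting interval 71.8 to 2144) and 180 times lower in the old (61.4 to 871). Camp was found in at most 3.07% of other Pdgfra-positive barcodes in either mouse, so few barcodes carried this difference. Ngp stood at 0.900 and 10.2 against 81.1 and 140 CPM, and lost its call when barcodes with a Pi16 UMI were left out of the comparison group.

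Markers of the marrow stroma were lower in members as a whole list, 12 of 12, with a median log2 change of -2.70. They summed to 2425 and 3207 CPM in members against 15687 and 16533 CPM. Lepr, the leptin receptor, stood at 88.3 and 71.3 against 540 and 617 CPM, and Kitl, stem cell factor, at 39.2 and 54.1 against 568 and 727 CPM. Cxcl12, the chemokine that holds blood stem cells in the marrow, fell by 2.64 ± 0.16 on the log2 scale but still stood at 1125 and 1626 CPM in members.

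Osteoblast markers were lower in 11 of 12 cases (median log2 change -3.76), and Phex did not pass the test. Runx2, the master regulator of the bone lineage, stood at 18.9 and 20.0 against 158 and 174 CPM, and Sp7 (osterix) at 3.60 and 1.52 against 27.6 and 38.1 CPM. Chondrocyte markers were lower in 6 of 12 cases, tendon markers in 7 of 9, and pericyte and smooth muscle markers in 8 of 11, with 0 higher in each of these lists. Of the nerve sheath markers S100b was lower, 1 of 6 tested.

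Joint lining markers were mixed. Prg4, which encodes the joint lubricant lubricin, stood at 1428 and 2096 CPM in members and 2187 and 2388 CPM in other Pdgfra-positive barcodes, and did not pass the test (log2 change -0.31 ± 0.13, edgeR adjusted p = 0.152). It was found in 62.7% and 76.4% of members and in 14.7% and 13.8% of blood barcodes. Has1, a hyaluronan synthase, was higher at 760 and 674 against 159 and 135 CPM, and Htra4, Hbegf and Vcam1 were lower, 3 of the 7 tested.

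Markers of blood and muscle were mostly lower in members or did not pass the test. Of 8 erythroid markers 4 were lower and 0 higher, with a sum of 271 and 82.6 CPM in members against 1675 and 456 CPM. Of the myeloid markers 2 of 8 tested were lower (Camp and Ngp), and the list summed to 72.9 CPM in young and 1312 CPM in old members, against 1529 and 2165 CPM. Of 6 B-lineage markers Ebf1 alone passed, higher at 1130 and 1119 against 714 and 763 CPM, a gene that fibroblasts express too. Nkg7, the only T and NK marker tested, did not pass. Mylpf and Ckm were lower among 5 skeletal muscle markers, and Upk1b was lower as the only mesothelial marker tested.

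**Figure D3:**
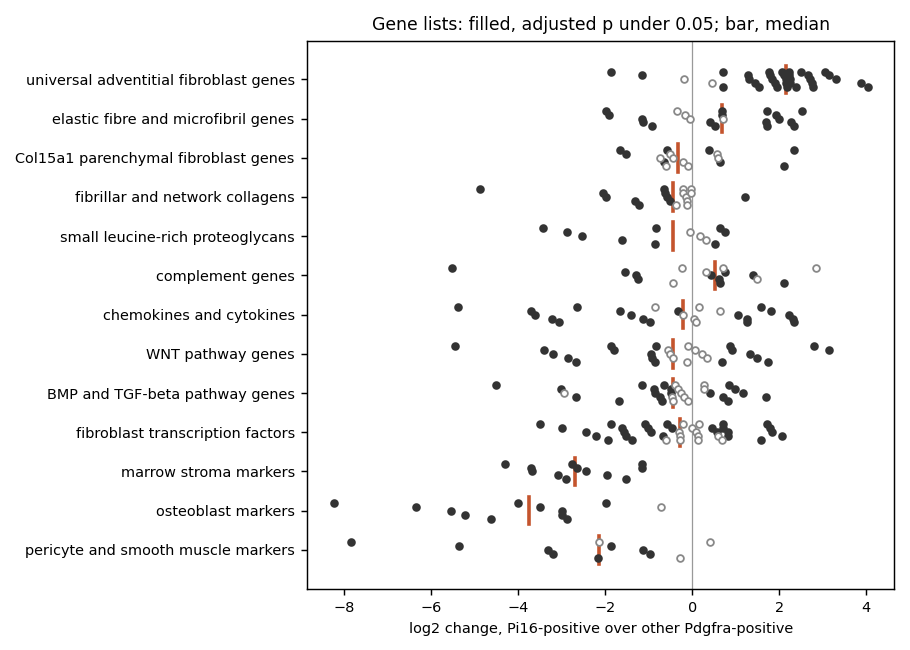
Log2 change of each tested gene (x axis, Pi16-positive fibroblasts over other Pdgfra-positive barcodes) in 13 gene lists (y axis). Filled points passed an adjusted p under 0.05, open points did not, and the bar is the median of the list, 2.16 for the universal adventitial genes, -2.70 for marrow stroma and -3.76 for osteoblast markers.

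Matrix genes differed by family. Of 21 elastic fibre and microfibril genes, 12 were higher and 5 lower (median log2 change 0.68). Mfap5, a microfibril-associated glycoprotein, stood at 1538 and 1516 against 336 and 307 CPM, and Fbn1 (fibrillin-1) at 1376 and 1309 against 435 and 433 CPM. Lox, Emilin1, Fbln5, Ltbp2 and Fbn2 were lower. Of 18 collagens, 9 were lower and Col14a1 alone was higher (log2 change 1.21 ± 0.15). Col1a1, the main bone collagen, stood at 1972 and 2718 against 6608 and 14160 CPM, while Col3a1 (log2 change -0.13 ± 0.12) and Col5a1 (-0.12 ± 0.10) did not pass the test.

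The small leucine-rich proteoglycans, which bind collagen fibrils, were higher in 3 and lower in 6 of 12 cases. Dcn (decorin) rose by 0.75 ± 0.16, while Lum (lumican) fell by 0.85 ± 0.12 and Bgn (biglycan) fell by 0.84 ± 0.11 on the log2 scale. Of 29 proteases and inhibitors, 8 were higher and 11 lower. Pcolce2, which aids procollagen processing, stood at 1125 and 904 against 245 and 158 CPM, the aggrecanase Adamts5 at 822 and 753 against 265 and 248 CPM, and the collagenase Mmp13 at 57.9 and 46.7 against 635 and 628 CPM.

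Signalling ligands split within each family. Of 27 WNT pathway genes, 8 were higher and 11 lower. The ligands Wnt2, Wnt10b, Wnt11 and Wnt9a were higher, Wnt10b at 45.9 and 38.7 against 7.80 and 5.33 CPM. Wnt4, Wnt16, Rspo2 and Rspo3 and the inhibitors Dkk1 and Wif1 were lower, Wnt4 at 4.86 and 1.96 against 42.4 and 36.0 CPM.

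Of 29 BMP and TGF-beta pathway genes, 7 were higher and 12 lower. The receptor Tgfbr2 rose by 1.69 ± 0.10 on the log2 scale and the secreted Fstl1 by 1.17 ± 0.11. Bmp3, Bmp4, Bmp5 and Bmp6 were lower, as were the antagonists Grem1, Chrdl1 and Fst. Of 25 chemokines and cytokines, 8 were higher and 11 lower. Ccl11 (eotaxin) stood at 176 and 208 against 47.3 and 33.96 CPM, the alarmin Il33 at 63.5 and 90.0 against 16.8 and 17.7 CPM, and Il6 rose by 1.81 ± 0.09 on the log2 scale. Il6 had a UMI in only 98 young and 69 old members.

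Complement genes were higher in 6 and lower in 4 of 16 cases. C3, the central component, stood at 1363 and 1599 against 575 and 613 CPM, and C7 rose by 2.10 ± 0.19 on the log2 scale, while C2 and C6 were among the lower genes. Of 16 genes of the Col15a1 parenchymal list, which are known from fibroblasts between small vessels, 4 were higher (Ccl11, C7, Podn and Hspg2) and 4 were lower (Apoe, Cxcl14, Gdf10 and Col4a1). Of 39 transcription factors, 11 were higher and 16 lower. Ebf2, Osr1, Osr2, Creb5 and Klf4 rose by 1.57 to 2.07 on the log2 scale, and Runx2, Ebf3, Foxs1 and Snai2 were lower.

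Of 22 genes for retinoid and lipid handling, 5 were higher, among them Apod and the retinaldehyde dehydrogenases Aldh1a1 and Aldh1a3. The 8 lower genes included Pparg, the regulator of fat cells, Lpl and Apoe. Of 24 immediate-early and heat shock genes, which are known to respond to tissue digestion, 4 were higher and 5 lower, with a median log2 change of 0.06. Fos (log2 change 0.06 ± 0.11), Jun (-0.11 ± 0.12) and Egr1 (0.30 ± 0.11) did not pass the test.

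The study followed senescence and survival genes, which were read in members as well. Of 17 tested, Il6, Cxcl1, Mcl1 and Cdkn1a were higher, and Bcl2 and Mki67 were among the lower genes. Cdkn1a, which encodes p21, stood at 401 and 227 against 253 and 191 CPM (log2 change 0.55 ± 0.12). Bcl2, a survival gene, stood at 13.3 and 18.3 against 41.9 and 45.7 CPM. Cdkn2a, the p16Ink4a locus, had 3 UMIs in 2 young and 31 UMIs in 5 old members, and did not pass the test (edgeR adjusted p = 0.0895).

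Several of these list counts depended on the block. With no mouse block, 29 of the 35 adventitial genes were higher and 12 of the 12 marrow stroma markers lower, but the count of lower collagens was 5 of 18, of lower chondrocyte markers 2 of 12, of lower tendon markers 3 of 9, and of lower erythroid markers 0 of 8.

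CD24 protein, the antibody readout, took no part in the choice. Members had a median of 77 (young, quartiles 50 and 120) and 83 (old, quartiles 59.5 and 124.5) CD24 antibody UMIs per barcode. The medians were 87 and 89 in other Pdgfra-positive barcodes and 2277 and 3792 in the blood barcodes. Quartiles of members and other Pdgfra-positive barcodes overlapped in each mouse. Per RNA UMI the log2 ratio of the medians, members over the rest, was -0.49 (young) and -0.36 (old). Cd24a RNA stood at 29.3 and 7.61 CPM in members against 29.2 and 21.3 CPM and did not pass the test (edgeR adjusted p = 0.34).

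Some levels followed the amount of Pi16 on both sides of the gate. Among all Pdgfra-positive barcodes, Cd34, Cd248, Dpp4, Ly6a, Ly6c1, Clec3b, Anxa3 and Mfap5 were higher and Lepr lower in each successive bin of Pi16 UMIs in both mice. Has1, Igfbp6, Cxcl12, Prg4, Smoc2 and Col15a1 did not keep to 1 direction over the bins of both mice. Cd34 stood at 226 (young) and 117 (old) CPM at 0 Pi16 UMIs, 468 and 342 CPM at 1 UMI, and 1066 and 1032 CPM at 8 or more. Lepr ran the other way, from 557 and 644 CPM at 0 to 96.4 and 85.3 CPM at 8 or more. Prg4 in the young mouse stood at 2257 CPM at 0 Pi16 UMIs, 905 CPM at 2 to 3 and 1586 CPM at 8 or more. Col15a1, a basement membrane collagen, was highest in between, at 107 CPM in the young mouse with 2 to 3 Pi16 UMIs and at 119 CPM in the old with 4 to 7, and at 66.6 and 52.3 CPM with 8 or more. Bins with 8 or more Pi16 UMIs were also deeper (median 9303 and 13498 UMIs) than those with 0 (6893.5 and 10433), and the part of depth in these levels was not tested.

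**Figure D4:**
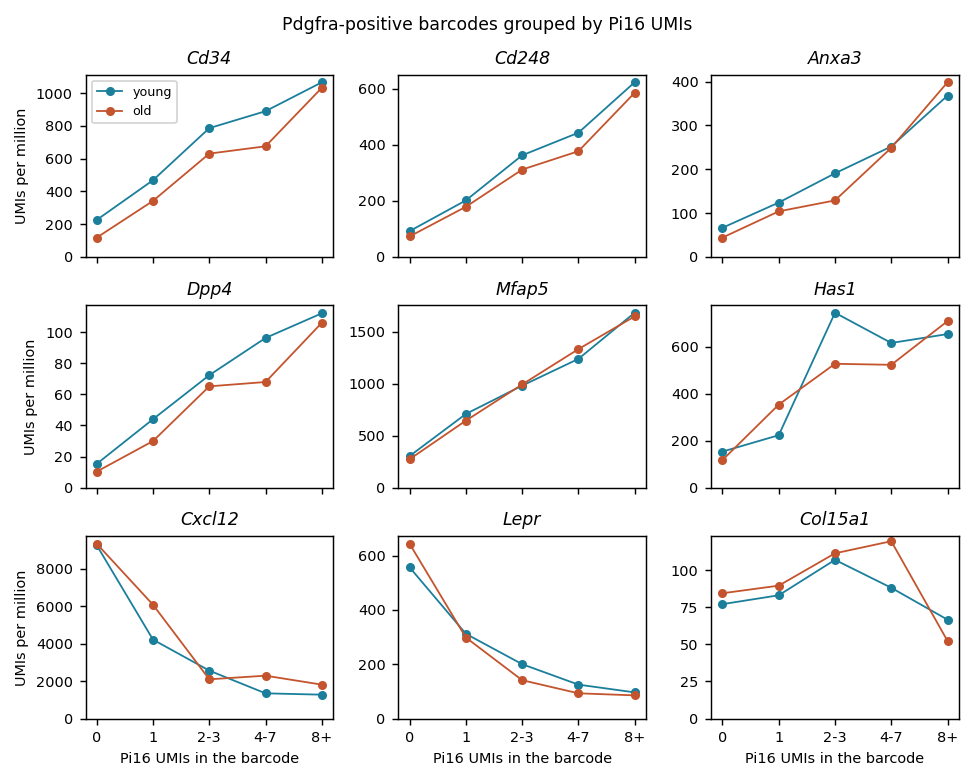
CPM (y axis, from 0) of 9 genes, 1 panel each, in Pdgfra-positive barcodes grouped by their Pi16 UMIs (x axis), for the young and old mice. Cd34 was higher and Lepr lower in each successive bin of both mice, while Col15a1 peaked at 107 CPM (young) and 119 CPM (old) in the middle bins.

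The first like group was the Col6a5 gate, Pdgfra-positive non-members with a UMI in at least 2 of Col6a5, Ccl11 and C7 (381 young and 212 old barcodes). Of 11602 genes, 560 were higher (4.83% of those tested) and 541 lower (4.66%) in Pi16-positive fibroblasts. The adventitial list was higher in 32 of 34 cases and lower in 0 (median log2 change 1.23, against -0.01 over all tested genes). With no mouse block 15 of the 34 were higher.

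Sbsn (suprabasin) stood at 56.7 and 78.1 CPM in members against 6.43 and 7.96 CPM in the Col6a5 gate, a log2 change of 3.19 ± 0.19 (edgeR adjusted p = 2.44e-06). Dpp4, Tek, Anxa8 and the neuronal guidance and adhesion genes Sema3e and Islr2 were also named as higher, with log2 changes from 2.80 to 3.17. Cd34 differed less, at 1020 and 934 against 696 and 441 CPM (log2 change 0.79 ± 0.14). Prg4 was higher too, at 1428 and 2096 against 789.5 and 635 CPM.

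Lower in members than in the Col6a5 gate were Sult1e1, Col6a6, Lsamp, Postn, Col4a5 and Nrep. Col6a6, a collagen VI chain, stood at 28.6 and 34.1 against 256 and 157 CPM. Postn (periostin) stood at 153 and 310 against 2445 and 443 CPM, so the mice differed in size, and it lost its call with DESeq2, with no block, with doublets removed and at 3 Pi16 UMIs. Col4a5 lost its call with no block. Of the Col15a1 parenchymal list 12 of 13 tested were lower, and 4 with no block. Col6a5, Ccl11 and C7 belong to that list and set this gate, so they were not tested and the count is not independent of the gate.

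The second like group was the Scg3 gate, Pdgfra-positive non-members with a UMI in at least 2 of Scg3, Sema3e and Islr2 (383 young and 198 old barcodes). Of 11677 genes, 429 were higher (3.67%) and 425 lower (3.64%) in Pi16-positive fibroblasts. The adventitial list was higher in 15 of 34 cases and lower in 1, Tppp3 (median log2 change 0.49, against 0.01 over all tested genes). With no mouse block 2 of the 34 were higher.

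Dpp4 did not pass the test against the Scg3 gate, at 114 and 104 CPM in members and 96.3 and 85.0 CPM there (log2 change 0.25 ± 0.09, edgeR adjusted p = 0.174). Sbsn (log2 change -0.19 ± 0.18), Ly6a (0.25 ± 0.07), Wnt2 (0.49 ± 0.25) and Has1 (0.62 ± 0.21) did not pass either. The partner genes were also frequent in these barcodes, Sema3c in 74.7% and 74.2% and Cd55 in 71.0% and 65.2%, while a Pi16 UMI was found in 9.14% and 14.1%. Many genes that set members apart from the stroma at large were thus also carried by the Scg3 gate. Its low Pi16 is in part set by the choice. Barcodes with at least 2 Pi16 UMIs and at least 2 partners were members and so not in this gate.

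C7 differed most, at 209 and 294 CPM in members against 32.3 and 36.1 CPM in the Scg3 gate (log2 change 2.84 ± 0.11, edgeR adjusted p = 1.99e-05). Ccl11, Slc43a3, Scn7a, Tek and Myoc were the others named as higher, Tek at 62.4 and 62.2 against 16.7 and 18.7 CPM. Aqp1, a water channel, was lower at 60.5 and 84.1 against 373 and 412 CPM, as were Bglap, Spon2, Mamdc2, Rgcc and Ndufa4l2. Of the 12 named calls, Myoc, Bglap and Rgcc were lost with DESeq2 and with no block, and Scn7a and Ndufa4l2 with no block. Complement genes were higher in 8 of 12 cases and lower in 0, and collagens lower in 13 of 18 and higher in 0, though with no block the counts were 1 and 1.

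Levels of some genes in members lay between those of the like groups. Apod stood at 1422 and 3035 CPM in members, 2738 and 5505 CPM in the Col6a5 gate and 647 and 834.7 CPM in the Scg3 gate. Smoc2, a matrix calcium-binding protein, stood at 76.1 and 152 CPM in members, 155 and 329 CPM in the Col6a5 gate and 25.8 and 58.1 CPM in the Scg3 gate. C3 and Apoe had the same order, and each of these 4 genes passed the test against both groups. The comparisons share the sums of the members. The like groups were cut from non-members, and members carried gate genes too, C7 in 44.6% and 53.4% and Sema3e in 38.5% and 48.4%. How many members would meet either gate was not counted, and a barcode may lie in both gates.

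Members also varied among themselves. After thinning to 2000 UMIs, the variance over the mean of UMIs per member (Fano factor) had a median of 1.11 and 1.12 over 1385 genes. Ccl2, a monocyte chemokine, reached 30.3 and 22.8, where 12.3% of young and 11.3% of old members held a UMI and the top 10% of members held 98.6% and 98.3% of them. The other genes among the 10 most uneven were the chemokines Cxcl1, Cxcl2, Ccl7 and Cxcl12, the metal-binding Mt1, Igfbp5, Prg4, the nuclear RNA Malat1 and Gm42418, a locus known to take up ribosomal RNA reads.

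The inflammatory chemokines Ccl2, Ccl7 and Cxcl1 tended to lie in the same members, and Cxcl2 went along less in the old mouse. Spearman's rho over thinned members was 0.483 (young, 576 members) and 0.457 (old, 337 members) for Ccl2 with Ccl7, and 0.472 and 0.419 for Mt1 with Cxcl1. For Cxcl2 with Ccl2, Cxcl1 and Ccl7 rho was 0.274, 0.337 and 0.361 in the young mouse and 0.206, 0.173 and 0.147 in the old. Igfbp5, a secreted IGF-binding protein, ran against Cxcl12, at -0.231 and -0.296. These values are a description over cells that share a library.

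Young and old members were compared with no test, since each age is 1 mouse. Of 11118 genes with at least 30 UMIs over both member sums, 211 (1.9%) were higher by at least 1 on the log2 scale in the old mouse and 201 (1.81%) in the young. Of these 412 genes, 332 had Poisson 95% intervals that did not overlap. The median log2 difference was 0.02 over all 11118 genes.

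Many of the largest differences rested on few barcodes. Stfa2l1, Cstdc4 and Retnlg, myeloid genes named in the old mouse, had a UMI in 4, 6 and 23 old members, with 85.4%, 80.2% and 51.4% of their UMIs in 1 member. Snorc and Ucma, cartilage genes named in the young mouse, were found in 7 and 4 young members. By list, 5 of 5 myeloid markers were past the fold in the old mouse, and 7 of 9 chondrocyte and 5 of 8 osteoblast markers in the young. The genes Acod1, Lilr4b and Mmp8 (old) and Serpina1d, Hba-x, Col9a2, Scrg1 and Mia (young) were carried by 14 members or fewer each.

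Igkc, Iglc1 and Lhx9 were spread more widely. Igkc, an immunoglobulin light chain, had 2 UMIs in young and 241 in old members, a ratio in CPM of 146 (counting interval 39.9 to 1209), over 160 old members. Other Pdgfra-positive barcodes differed the same way, at 5.80 CPM in the young and 2373 CPM in the old library. No old member held more than 1.66% of the Igkc UMIs or 3.45% of the Iglc1 UMIs. How many of these UMIs were free RNA was not tested. Iglc1 was at least 23.4 times higher in old members (54 members), and Lhx9, a limb and gonad transcription factor, at least 11.9 times higher in young members (30 members). Other Pdgfra-positive barcodes moved the same way in both genes, Iglc1 from 0.0841 CPM in the young to 657 CPM in the old library and Lhx9 from 4.94 to 1.09 CPM.

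To describe genes carried by many members, genes with a UMI in at least 10% of members and no member above 10% of the UMIs, both read in the mouse where the gene was higher, were kept, a rule chosen after the data were seen. It left 103 genes, 69 higher in the old mouse and 34 in the young, and 27 of them reached 50 CPM in the higher mouse. Igkc was among the 27, and the part of free RNA in it was not tested. Myoc (myocilin), a secreted glycoprotein, stood at 947 CPM in young and 2188 CPM in old members, while other Pdgfra-positive barcodes held 473 and 331 CPM. Apod stood at 1422 and 3035 CPM in members and 1077 and 1186 CPM in the rest, and the growth factor Igf1 at 408 and 912 CPM against 454 and 526 CPM.

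Hmcn2 and Hmcn1, hemicentins of the extracellular matrix, were higher in old members by 1.84 and 1.08 on the log2 scale, against 0.01 and -0.20 in other Pdgfra-positive barcodes. Cxcl14, Sparcl1, Apoe, Inmt, Fmo2, Angptl1, Atp8b1, Plac8, Pttg1, Plat and Zfp503 were also higher in old members, by 1.01 to 1.84. Higher in young members were Ccl2 (807 against 355 CPM, with 29.1% of its old UMIs in 1 member), the nuclear receptor Nr4a2 (194 against 57.4 CPM), Barx1 (83.1 against 17.0 CPM), Stmn4, Ptgs2, Ccl19, Gsta4, AA467197, Gm47283 and Gm8797, of which the Gm loci may share reads with near-identical copies. Barx1, a homeobox gene, differed alike in other Pdgfra-positive barcodes, by -1.79 there and -2.29 in members. In 8 of the 27 genes the other Pdgfra-positive barcodes were past the same fold in the same direction.

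By list, 0 of 34 adventitial genes were past the fold in the old mouse and 1, Stmn4, in the young (median log2 difference -0.15, and -0.37 in other Pdgfra-positive barcodes). Of the Col15a1 parenchymal list 5 of 16 were past it in the old mouse, namely Sparcl1, Apoe, Cxcl14, Col6a5 and Meox1, with a median of 0.86 in members and 0.09 in other Pdgfra-positive barcodes. Col6a5 and Meox1 each had a UMI in 7.67% of old members. Age, mouse and library cannot be told apart in any of these values.

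**Figure D5:**
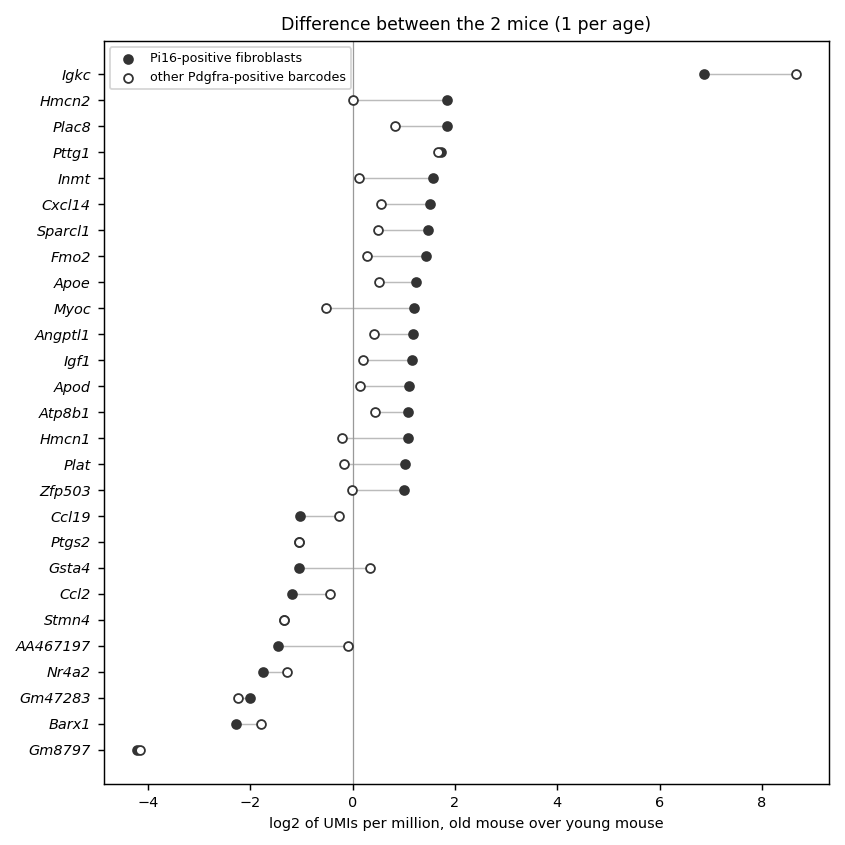
Log2 of CPM in the old over the young mouse (x axis, 1 mouse per age, no test) for the 27 genes spread over members (y axis), in Pi16-positive fibroblasts (filled points) and other Pdgfra-positive barcodes (open points). Myoc lay at 1.21 in members and -0.52 in the rest, while Gm8797 lay at -4.22 and -4.14.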

How the data were processed

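Raw UMI counts per gene and barcode, and counts of 1 antibody, were deposited by the authors in 1 matrix per mouse, written by Cell Ranger 6.1.1 per the file headers. The submitters' processing notes name mm10, R 4.0.3 and Seurat 4.0. No normalization had been applied.

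Barcodes with at least 200 genes and at most 20% mitochondrial UMIs were kept, as in the study, and doublets (Scrublet in scanpy 1.11.5) were marked and removed only in an alternative. Members and gene lists were chosen with earlier results of these data known. Sums of UMIs were fitted with edgeR 4.0.16 (TMM, filterByExpr, mouse as a block because its sums come from the same animal, two-sided). On simulated counts the test recovered 88% of 200 genes changed by log2 1 against other Pdgfra-positive barcodes, 73% against the Col6a5 gate and 93.5% against the Scg3 gate, with false shares of 7.85%, 0% and 2.60% of the calls, the first above the level of the adjusted p threshold (0.05).

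Named genes passed the test, had the same sign in both mice and at least 50 CPM in the higher group of both mice, taken by size of change (14 and 10, or 6 and 6). Age genes were the 8 largest each way with intervals apart, with 0.5 UMI added to each sum. For a gene at 0 in 1 mouse, 3 UMIs over the group served as the floor. Alternatives were DESeq2 1.42.0 (R 4.3.3), other size factors, no filter, no block, doublets removed, a 10% mitochondrial limit, thinning to 2000 UMIs and other gates.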

Additional observations from a re-analysis of the deposited data

Results flagged for a closer look

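Of the 332 genes past the age fold in Pi16-positive fibroblasts with intervals apart, 95 had the opposite sign in other Pdgfra-positive barcodes. Among the genes named for age and the Col15a1 parenchymal list, and where the opposite difference in the rest was at least 0.5 on the log2 scale, 2 remained. In these the difference between the old and young mice ran one way in Pi16-positive fibroblasts and the other way in other Pdgfra-positive barcodes of the same libraries. Myoc was higher in old members by 1.21 on the log2 scale (947 and 2188 CPM) and lower in the rest (473 and 331 CPM). Col6a5 was higher in old members by 1.504 (13.7 and 38.9 CPM), with 25.7% of the old UMIs in 1 member, and lower in the rest (52.8 and 36.8 CPM). Genes outside those named for age and that list also ran opposite ways, such as Mfap4 (1.68 in members and -0.84 in the rest) and Scg3 (1.77 and -0.78). With 1 mouse per age, the difference between the groups was not tested.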

How the results depend on the processing

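The number of genes that differed from other Pdgfra-positive barcodes (3439) was 2037 with DESeq2. Against the Col6a5 gate (1101) it was 293 with DESeq2, 186 with no replicate block, 606 with doublets removed and 540 after thinning. Against the Scg3 gate (854) it was 208 with DESeq2, 56 with no replicate block, 534 after thinning and 1445 with no filter on low counts. With no replicate block the count against other Pdgfra-positive barcodes was 2447. None of the 48 named changes reversed under any alternative. The calls lost were Ngp with Pi16-positive barcodes left out of the comparison group, Postn as given above, Col4a5 with no block, Myoc, Bglap and Rgcc in the Scg3 comparison with DESeq2 and with no block, and Scn7a and Ndufa4l2 there with no block. The cause was not tested.

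The young and old shares of members were 7.15% and 7.37% at 1 Pi16 UMI, 5.16% and 5.37% at 3, 6.57% and 7.13% at 1 partner, 4.91% and 5.01% at 3 partners, and 2.53% and 2.17% after thinning. The log2 ratio of median CD24 antibody UMIs, members over other Pdgfra-positive barcodes, was -0.18 (young) and -0.10 (old), and -0.49 and -0.36 per RNA UMI. The 412 genes past the age fold were 234 after thinning, where fewer genes reach 30 UMIs, and 103 when kept to genes spread over members. Leaving out either mouse left 1 pair of sums and so no test, and the rule for named genes requires the same sign in both mice.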
